A study of Mus musculus with 8 samples.

Results

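Transcripts of the Toll-like receptors other than Tlr4, with the receptor-like protein Cd180 and its partner Ly86, were followed in BV-2, an immortalised line of mouse microglia made with a retrovirus carrying oncogenes. The set was chosen by name, without Tlr5, Tlr11 and Tlr12. It holds Tlr1, Tlr2, Tlr3, Tlr6, Tlr7, Tlr8, Tlr9, Tlr13, Cd180 and Ly86. These are 10 of the 21154 genes that could be given a symbol, and they are read by 12 of the 55681 probes on the array. Cells were incubated for 24 h with lipopolysaccharide at 1 µg/mL together with a hexane extract fraction (HF) of Amauroderma rugosum, a mushroom, at 100 µg/mL (LPS+HF), with lipopolysaccharide alone at 1 µg/mL (LPS), with the fraction alone at 100 µg/mL (HF), or with neither (control). Each of these 4 groups had 2 arrays, 8 in all. The study calls them biological replicates. Nothing in the sources used here says whether they came from separate cultures, so p-values measure the spread between these samples, which may be technical.

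Toll-like receptors recognise molecules of microbes and of damaged cells. Those at the cell surface bind lipids and lipoproteins of microbial walls. Those in endosomes bind nucleic acids and need the chaperone Unc93b1 to get there. Most signal through the adaptor Myd88 to NF-kB, and microglia are the cells of the brain parenchyma that carry the widest set of them. The lipopolysaccharide used here is sensed by Tlr4, which is not among the genes described.

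Levels are given as log2 of the probe's brightness relative to the 75th percentile of its array, so 0 is the brightness of that percentile. A level can be compared between arrays for 1 probe but not between probes, which differ in how well they bind. In RNA pooled from many cells, fewer cells with a transcript and less of it per cell cannot be told apart. Of the 12 microglia and macrophage markers looked up, 10 were above background on all 8 arrays, while Cx3cr1 was on 6 and P2ry12 on 5. Markers of other cell types were above background in part as well, among them 2 of 4 astrocyte, 2 of 4 neuron, 3 of 3 oligodendrocyte and 2 of 3 lymphocyte genes on all 8 arrays. The array of control replicate 1 stood apart: its repeated probes had a coefficient of variation of 48.9%, compared with values between 3.77% and 8.06% elsewhere. The scanner software did not accept its grid of spots, and it marked this array and HF replicate 1 for evaluation. The differences of the set are therefore also read after a spatial correction, in which the local deviation of every array from the mean of the 6 arrays that passed the scanner's quality report was subtracted. The 8 arrays lay on 1 slide, with the HF and LPS+HF arrays in one row and the LPS and LPS+HF arrays in 2 columns of their own, so place on the slide and treatment cannot be told apart.

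Of the 10 genes, 8 were bright enough to be tested, through 9 of the 12 probes, and these 9 were above background on all 8 arrays. Tlr3 and Tlr8 were not tested. In LPS minus control, 2 of the 8 passed as higher (Tlr2 and Tlr1) and 3 as lower (Tlr13, Tlr7 and Cd180), at a Benjamini-Hochberg adjusted p under 0.05 in limma's moderated test over 22460 genes. Over all genes tested, which include records without a gene symbol, 4.77% passed as higher and 6.3% as lower in that comparison. With the spatial correction 2 passed as higher and 4 as lower, with Ly86 added, against 10.3% and 14.4% of all genes. The median of the 8 differences was -0.57 as measured and -0.18 corrected, against -0.08 and -0.06 over all genes. In LPS+HF minus HF 2 of the 8 passed as higher, against 0.904% of all genes, and 2 after the correction, against 2.37%. As measured 0 passed in HF minus control, in LPS+HF minus LPS and in the interaction of LPS and HF, where 0.89%, 6.14% and 0.0534% of all genes did. Corrected, 4, 1 and 1 passed in these, against 6.83%, 23.1% and 1.65% of all genes.

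**Figure D1:**
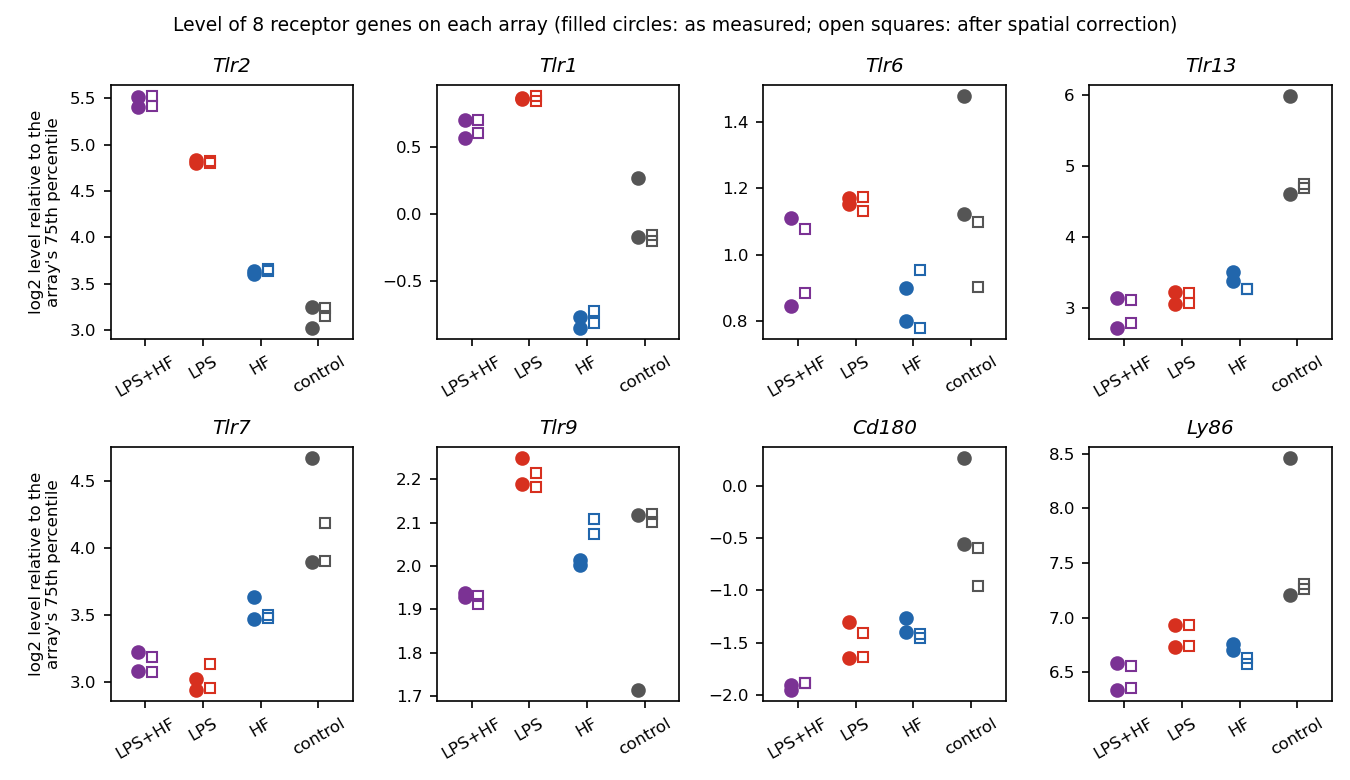
Level of each of the 8 tested genes on each array, as log2 relative to the array's 75th percentile (vertical axis, a separate range for each gene), for the groups LPS+HF, LPS, HF and control from left to right. Filled circles are values as measured and open squares are after the spatial correction. The upper control circle of Tlr13, at 5.99, comes down to 4.75 after it, while the Tlr2 values of LPS+HF and LPS stay above those of HF and control in both.

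Tlr2, the surface receptor for bacterial lipoproteins, had the clearest pattern of the set. Its level was 5.41 and 5.51 on the LPS+HF arrays, 4.80 and 4.84 on the LPS arrays, 3.60 and 3.64 on the HF arrays and 3.03 and 3.25 on the control arrays. Both arrays of each group lay apart from both arrays of every other group, in the order LPS+HF, LPS, HF, control. Tlr2 was 3.20-fold higher in LPS than in control (log2 difference 1.68 ± 0.14 SE, adjusted p = 0.00333) and 3.59-fold higher in LPS+HF than in HF (1.84 ± 0.14, adjusted p = 0.00458). The corrected differences were 1.62 and 1.82. The 2 smaller steps, which both add HF, did not pass: LPS+HF minus LPS was 0.64 ± 0.14 (95% interval 0.30 to 0.99, adjusted p = 0.0552) and HF minus control was 0.48 ± 0.14 (0.13 to 0.83, adjusted p = 0.173). After the spatial correction both passed, at 0.66 (adjusted p = 0.00765) and 0.45 (adjusted p = 0.0488). The second, HF minus control, no longer passed when the corrected values were tested with each probe on its own (adjusted p = 0.0583).

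The Tlr2 probe is printed 10 times on each array, which shows how evenly the gene was read. The spots ran between 22016 and 22773 units of processed signal on LPS+HF replicate 1 and between 20064 and 21422 on replicate 2. On the LPS arrays they ran between 7386 and 8138 and between 7933 and 8417, and on the HF arrays between 3963 and 4656 and between 5700 and 6057. On control replicate 2 they ran between 2388 and 2553, but on control replicate 1 between 1127 and 4040. The spread of the 10 spots on control replicate 1, an SD of 0.69 on the log2 scale, was 0.19 after the spatial correction, and 0.02 to 0.08 before it on the other arrays. The ranges of the LPS and LPS+HF arrays did not reach down to the highest control spot. These signals are before scaling, and the LPS+HF and HF arrays were brighter as a whole. The 75th percentile was 527.5 and 454.7 units on the LPS+HF arrays and 347 and 472 on the HF arrays. It was 282.5 and 286.1 on the LPS arrays and 247 and 262 on the control arrays. Differences between groups are therefore read from the scaled levels above.

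**Figure D2:**
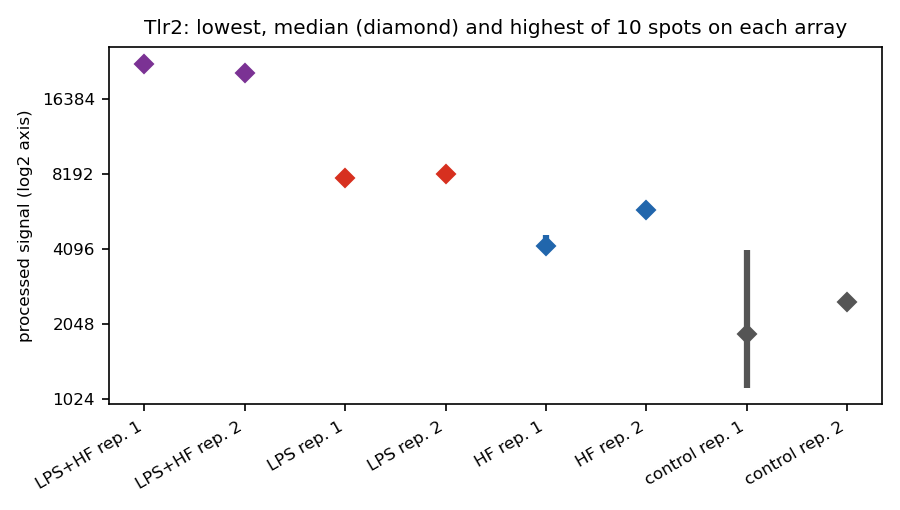
Processed signal of the 10 Tlr2 spots on each array (vertical axis, log2 scale, before scaling between arrays). Bars run between the lowest and the highest spot and diamonds mark the median; control replicate 1 has a bar between 1127 and 4040, and most other bars are hidden by their diamond.

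Tlr2 lies on chromosome 3 (GRCm38.p6, chr3:83836272-83841824, minus strand). Its promoter is shown because Tlr2 passed as higher in both comparisons that add LPS; the promoter of Tlr1, which did too, is given further on. Capitals mark 2 stretches that match the NF-kB motif on either strand, at bases -173 to -163 and -8 to 1 with the start base counted as 0 (RefSeq, GRCm38.p6, 250 bases before the start and 10 from it on).
Tlr2 promoter, chr3:83841599-83841858, minus strand: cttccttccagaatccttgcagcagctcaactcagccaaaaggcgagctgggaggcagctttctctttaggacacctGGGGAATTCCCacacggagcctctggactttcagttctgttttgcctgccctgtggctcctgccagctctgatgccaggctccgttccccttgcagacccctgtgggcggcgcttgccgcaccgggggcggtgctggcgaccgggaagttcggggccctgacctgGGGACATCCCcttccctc
Of the 32851 promoter windows of this length in the table, 7.46% held such a match. Of the 9 genes of the set with an entry, Tlr3 was the other one with a match, and Tlr7 has no entry. The start used for Tlr2 lies inside the gene span given above, which ends at base 83841824, and both matches lie within that span. They are therefore not upstream of the whole annotated gene. A match describes the letters and is not a measured binding site.

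Tlr1 pairs with Tlr2 to recognise triacylated lipoproteins. Its level was 0.70 and 0.56 on the LPS+HF arrays, 0.86 and 0.86 on the LPS arrays, -0.77 and -0.84 on the HF arrays and 0.27 and -0.17 on the control arrays. The 4 arrays with LPS lay above the 4 without it, and both HF arrays lay below both control arrays. Tlr1 was 1.76-fold higher in LPS than in control (log2 difference 0.81 ± 0.18, adjusted p = 0.0423) and 2.71-fold higher in LPS+HF than in HF (1.44 ± 0.18, adjusted p = 0.0241). The corrected differences were 1.04 and 1.42, and both passed. HF minus control, at -0.85 ± 0.18, missed the threshold (adjusted p = 0.11) and passed after the spatial correction, where it was -0.59 ± 0.10 (adjusted p = 0.0269). LPS+HF minus LPS was -0.23 (95% interval -0.67 to 0.21). Tlr1 and Tlr2 thus had values of opposite sign in HF minus control, below 0 for Tlr1 and above 0 for Tlr2, with 95% intervals that did not reach 0 in either setting.

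Tlr6, the other partner of Tlr2, for diacylated lipoproteins, did not pass in any comparison. Its level was 1.11 and 0.85 on the LPS+HF arrays, 1.15 and 1.17 on the LPS arrays, 0.80 and 0.90 on the HF arrays and 1.48 and 1.12 on the control arrays. The group means spanned 0.45 on the log2 scale, and the LPS values lay within the control values. LPS minus control was -0.14 with a 95% interval of -0.58 to 0.30, and its sign turned after the spatial correction, to 0.15 (-0.16 to 0.46). Tlr1 and Tlr6 are neighbours on chromosome 5 (GRCm38.p6, chr5:64924680-64933600 and chr5:64953092-64970942), 19.5 kb apart with 0 annotated genes between them. They gave different calls in LPS minus control, but the difference between the genes was not tested.

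Among the endosomal receptors, Tlr13, which recognises a stretch of bacterial ribosomal RNA in mice, was lower on every treated array than on both control arrays. Its level was 3.13 and 2.72 on the LPS+HF arrays, 3.06 and 3.22 on the LPS arrays, 3.50 and 3.38 on the HF arrays and 5.99 and 4.60 on the control arrays. The 6 treated values lay between 2.72 and 3.50. Tlr13 was 4.45-fold lower in LPS than in control (log2 difference -2.15 ± 0.44, adjusted p = 0.0328). The 2 control values stood 1.39 apart. Around the Tlr13 spot on control replicate 1, processed signals were higher by 1.36 on the log2 scale than on the arrays it was set against. The raw median pixel of the Tlr13 spot was not higher there, at 5546 against 6281 on control replicate 2. The processed signal was 15718 against 6365.5, and the differences from control as measured rest in part on it. The cause was not tested. After the spatial correction the control levels were 4.75 and 4.69, and the difference was -1.58 ± 0.13, or 2.99-fold lower (adjusted p = 0.000983).

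In HF minus control Tlr13 was at -1.86 ± 0.44 (adjusted p = 0.131), and at -1.46 ± 0.13 after the spatial correction, where it passed (adjusted p = 0.00555). In the presence of the other agent the differences were smaller: LPS+HF minus HF was -0.51 (95% interval -1.58 to 0.56) and LPS+HF minus LPS was -0.21 (-1.29 to 0.86). The interaction, the LPS difference with HF minus that without HF, was 1.64 ± 0.62 (adjusted p = 0.406). Corrected, it was 1.27 ± 0.19 and passed (adjusted p = 0.0386).

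Tlr7, which senses single-stranded RNA, was read by 3 probes, of which 1, for another transcript record, was below background on every array. The brightest had a level of 3.22 and 3.08 on the LPS+HF arrays, 2.94 and 3.03 on the LPS arrays, 3.63 and 3.47 on the HF arrays and 4.67 and 3.90 on the control arrays. The other was at 2.48 and 2.19 on the LPS+HF arrays, 1.66 and 1.87 on the LPS arrays, 2.50 and 2.65 on the HF arrays and 3.22 and 3.0 on the control arrays. Both probes were lowest on the LPS arrays and highest on the control arrays. In LPS minus control the brightest probe was 2.46-fold lower (log2 difference -1.30 ± 0.26, adjusted p = 0.0322), and the other, tested on its own, was at -1.35 ± 0.18 (adjusted p = 0.0114). Corrected, they were at -1.0 and -1.27, and both passed. In HF minus control they were at -0.73 (adjusted p = 0.219) and, on its own, -0.54 (adjusted p = 0.212), and neither passed after the spatial correction. In LPS+HF minus LPS the brightest was at 0.17 (adjusted p = 0.764) and the other, on its own, at 0.57 (unadjusted p = 0.019, adjusted p = 0.125). For the interaction they were at 0.90 (adjusted p = 0.433) and, on its own, 1.11 (unadjusted p = 0.0047, adjusted p = 0.225). Neither probe passed in these comparisons after the correction.

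Tlr9, the receptor for unmethylated CpG DNA, did not pass in any comparison. Its level was 1.93 and 1.94 on the LPS+HF arrays, 2.25 and 2.19 on the LPS arrays, 2.0 and 2.01 on the HF arrays and 1.71 and 2.12 on the control arrays. The group means spanned 0.30 on the log2 scale, less than the 2 control arrays did between themselves. LPS minus control was 0.30 (95% interval -0.11 to 0.72) and 0.09 (-0.13 to 0.31) after the spatial correction. LPS+HF minus LPS was -0.29 (-0.70 to 0.13). After the correction it was -0.28 (-0.50 to -0.06) and did not pass (adjusted p = 0.0723). Of the tested endosomal receptors of the set, Tlr13 and Tlr7 passed as lower in LPS minus control and Tlr9 did not pass. The differences between these genes were not tested. Tlr12, a Toll-like receptor outside the set, was above background on both arrays of every group. It did not pass in LPS minus control, at 0.48 (adjusted p = 0.273), or 0.32 corrected. In HF minus control it was at -0.97 (adjusted p = 0.152), and at -1.12 after the correction, where it passed (adjusted p = 0.03525).

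Tlr3, the receptor for double-stranded RNA, and Tlr8, a neighbour of Tlr7 on chromosome X with 39.1 kb and 0 annotated genes between them, were not tested because they were not above background on both arrays of any group. The Tlr3 signal was 156.9 units on LPS+HF replicate 1 and 4.20 on replicate 2. It was 6.46 and 6.88 on the LPS arrays, 4.18 and 4.33 on the HF arrays and 2.70 and 3.01 on the control arrays, all below background. The signal of LPS+HF replicate 1 thus had no counterpart on any other array. Tlr8 gave 17.5 and 10.6 units on the LPS+HF arrays, 10.3 and 19.7 on the LPS arrays, 16.4 and 10.8 on the HF arrays and 17.1 and 15.1 on the control arrays, above background on LPS replicate 2 and not on the other 7. The dimmest probes above background read between 8.12 and 26.1 units, depending on the array.

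**Figure D3:**
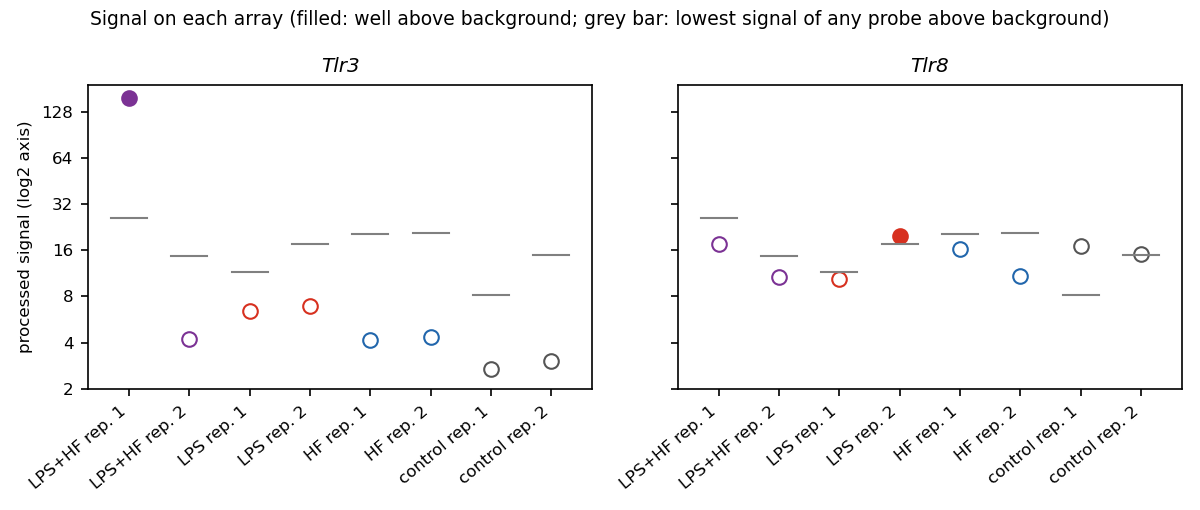
Processed signal of the Tlr3 and the Tlr8 probe on each array (vertical axis, log2 scale, before scaling between arrays). Filled points are well above background and open points are not; grey bars give the lowest signal of any probe above background on that array. Tlr3 is filled on LPS+HF replicate 1 at 156.9 and Tlr8 on LPS replicate 2 at 19.7.

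Cd180 (RP105) resembles Tlr4 outside the cell but lacks the signalling domain, and in macrophages it restrains the response to LPS. Its level was -1.91 and -1.95 on the LPS+HF arrays, -1.65 and -1.31 on the LPS arrays, -1.26 and -1.39 on the HF arrays and 0.27 and -0.55 on the control arrays. The 6 treated arrays lay below both control arrays, and both LPS+HF arrays were the lowest of the 8. Cd180 was 2.52-fold lower in LPS than in control (log2 difference -1.33 ± 0.29, adjusted p = 0.0374), and after the spatial correction 1.68-fold lower (-0.75 ± 0.15, adjusted p = 0.0154). HF minus control was -1.19 ± 0.29 (adjusted p = 0.135), and -0.66 ± 0.15 after the correction (adjusted p = 0.0536). LPS+HF minus LPS was -0.45 (95% interval -1.15 to 0.24).

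Ly86 (MD-1) is the secreted partner that Cd180 needs to reach the surface. Its level was 6.59 and 6.34 on the LPS+HF arrays, 6.73 and 6.93 on the LPS arrays, 6.70 and 6.76 on the HF arrays and 8.46 and 7.21 on the control arrays. As for Cd180, the 6 treated arrays lay below both control arrays. Neither LPS minus control, at -1.0 ± 0.39 (adjusted p = 0.154), nor HF minus control, at -1.11 ± 0.39 (adjusted p = 0.215), passed. Processed signals around Ly86 on control replicate 1 were higher by 1.27 and those around Cd180 by 1.33 on the log2 scale. The raw median pixel of the Ly86 spot was 39403 there and 37591 on control replicate 2, against processed signals of 86992 and 38766. For Cd180 the pixels were 152 and 222.5, and the processed signals 297.29 and 178.46. After the correction the control levels of Ly86 were 7.31 and 7.26, and the differences, -0.45 ± 0.12 (adjusted p = 0.0402) and -0.68 ± 0.12 (adjusted p = 0.0312), were smaller but passed. Cd180 and Ly86 both lie on chromosome 13 but far apart (GRCm38.p6, chr13:102693547-102706631 and chr13:37345345-37419036).

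**Figure D4:**
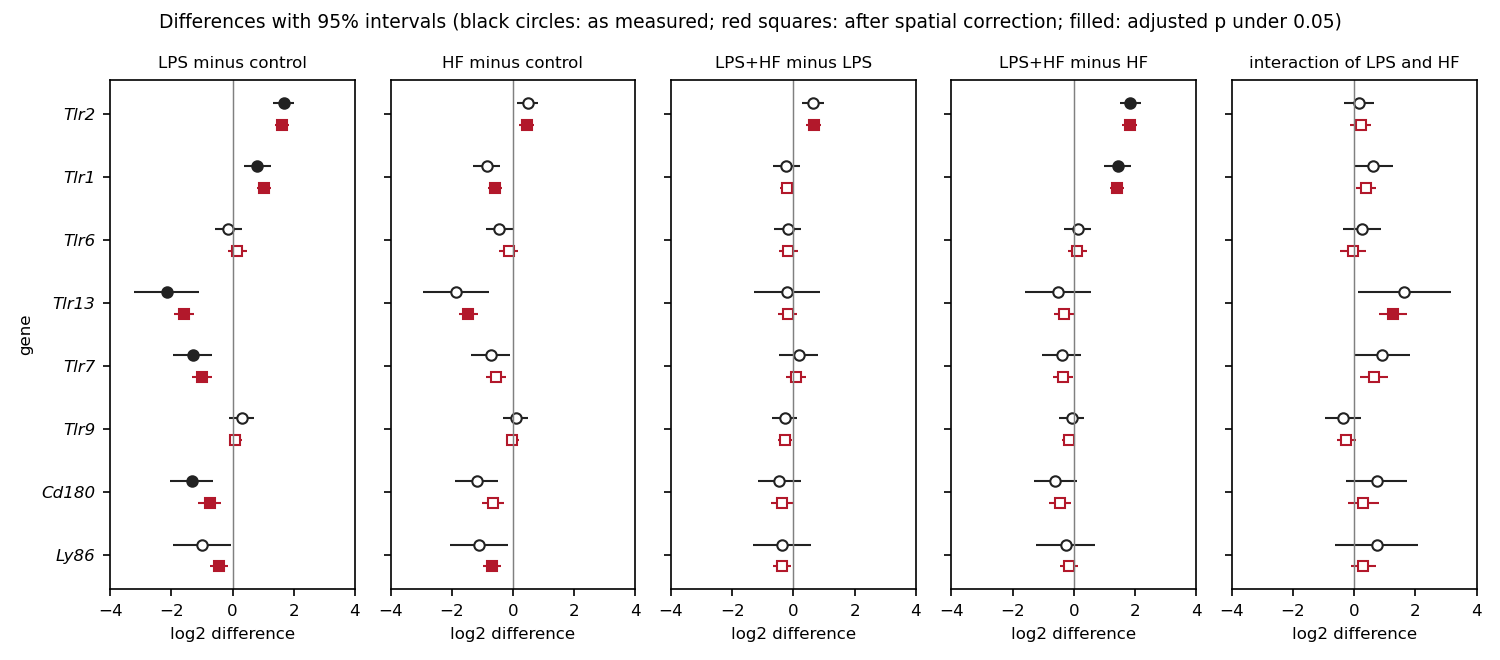
Log2 difference (horizontal axis) with its 95% interval for the 8 tested genes in the 5 comparisons. Black circles are values as measured, red squares are after the spatial correction, and filled symbols passed at an adjusted p under 0.05; the intervals of Tlr13 are the widest of the black ones, and Tlr2 is filled in LPS minus control and LPS+HF minus HF in both settings.

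The question of the study's title, what the hexane fraction does in cells with LPS, is LPS+HF minus LPS. In it 0 of the 8 genes passed in limma's test, and over all genes 2.89% passed as higher and 3.25% as lower. By each gene's brightest probe, 1 had an unadjusted p under 0.05 (Tlr2), against 5361 of the 22460 genes tested. The dimmer of the tested Tlr7 probes, on its own, had an unadjusted p of 0.019 and did not pass. With the correction Tlr2 passed as higher, and all genes gave 11.6% higher and 11.5% lower. Corrected, 3 of the 8 had an unadjusted p under 0.05 (Tlr2, Ly86 and Tlr9), against 8696 of the 22460 genes. Ly86 was then at -0.38 (95% interval -0.67 to -0.09) and did not pass (adjusted p = 0.0668). The median of the 8 differences was -0.22, against -0.07 over all genes tested. Of the receptors that passed as higher in LPS minus control, Tlr2 lay above and Tlr1 below its LPS levels on both LPS+HF arrays, with neither difference past the threshold as measured.

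In HF minus control 0 of the 8 passed as measured. Over all genes 0.142% passed as higher and 0.748% as lower. An unadjusted p under 0.05 was seen for 7 of the 8, against 4410 of the 22460 genes tested. Once corrected, 1 passed as higher (Tlr2) and 3 as lower (Tlr13, Tlr1 and Ly86), against 2.44% and 4.39% of all genes. An unadjusted p under 0.05 was seen for 6 of the 8 after the correction, against 6332 of the 22460. The median difference was -0.79 before and -0.57 after it, against -0.07 and -0.04 over all genes. LPS minus control and HF minus control share the same 2 control arrays, so the values of a gene in them are not independent.

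In LPS+HF minus HF, which uses no control array, 2 of the 8 passed as higher (Tlr2 and Tlr1) and 0 as lower, before and after the spatial correction. Over all genes 0.904% passed as higher and 0.374% as lower, and after the correction 2.37% and 1.37%. Tlr13, Tlr7, Cd180 and Ly86, which were lower or below 0 in LPS minus control, were at -0.51, -0.40, -0.60 and -0.27 here and did not pass. The median of the 8 was -0.17, against -0.08 over all genes. For the interaction 0 of the 8 passed, with 0.0134% of all genes higher and 0.0401% lower. By each gene's brightest probe, 1 had an unadjusted p under 0.05 (Tlr13), against 2597 of the 22460 genes tested. The dimmer of the tested Tlr7 probes, on its own, had an unadjusted p of 0.0047 and did not pass. After the correction Tlr13 passed, with 0.931% of all genes higher and 0.717% lower. Corrected, 3 of the 8 had an unadjusted p under 0.05 (Tlr13, Tlr7 and Tlr1), against 4308 of the 22460 genes. The median of the 8 was 0.68 as measured and 0.30 corrected, against 0.02 and -0.01 over all genes.

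Leaving out 1 array moved these counts, and moved those over all genes with them. In LPS minus control, 7 of the 8 passed without control replicate 2, when 52.6% of all genes did, and 5 without control replicate 1, when 20.3% did. Without LPS replicate 1 or 2, 0 passed, against 0.784% and 0.752% of all genes. Without any one of the HF and LPS+HF arrays 1 passed, against 4.88% to 4.94% of all genes. In HF minus control 7 passed without control replicate 2, which leaves the uneven array as the lone control and calls 45.2% of all genes, and 0 without any other array. In LPS+HF minus HF, 2 passed without either control array (3.94% of all genes), 1 without either LPS array (0.61%) or without HF replicate 2 (0.592%), and 0 without HF replicate 1 or either LPS+HF array (0.249% to 0.463%). In LPS+HF minus LPS, Tlr2 passed without either control array (adjusted p = 0.00929 each), when 29.1% of all genes did. For the interaction 6 passed without control replicate 2, when 35.3% of all genes did.

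Other genes of Toll-like receptor recognition and signalling were counted from a list of 56, of which 54 had a probe and 51 were tested. In LPS minus control 9 of the 51 (17.6%) passed as higher and 0 as lower, against 4.77% and 6.3% of all genes. With the spatial correction 13 (25.5%) and 8 (15.7%) passed, against 10.3% and 14.4%; control replicate 1 was masked there for 7 of the 51. The median difference of the 51 as measured was 0.0038, against -0.08 over all genes. Irf7, a transcription factor of the interferon response, was 8.90-fold higher as measured and 5.63-fold higher corrected, where control replicate 1 was masked at its spot and 1 control array was left. The lysosomal transporter Slc15a3 was 5.87-fold higher as measured and 9.39-fold corrected. Tnfaip3 (A20), which removes ubiquitin to damp NF-kB signalling, was 5.59-fold higher (4.63-fold corrected) and Irak3, an inhibitory member of the Irak family, 5.46-fold (4.92-fold). The kinase Ikbke was 4.04-fold (5.63-fold corrected) and Cd14, which hands LPS to the Tlr4 complex, 3.78-fold higher (3.55-fold). The 3 others that passed were between 1.79-fold and 2.48-fold higher, and between 1.59-fold and 3.62-fold corrected.

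In LPS+HF minus LPS 2 of the 51 (3.92%) passed as higher and 3 (5.88%) as lower, against 2.89% and 3.25% of all genes. After the correction 9 (17.6%) and 8 (15.7%) passed, against 11.6% and 11.5%. The median of the 51 as measured was -0.03, against -0.07 over all genes. Lbp, which extracts LPS from bacterial membranes, was 5.81-fold higher (5.71-fold corrected) and the ubiquitin ligase Traf6 1.77-fold (1.71-fold). Irf7 was 7.23-fold lower (6.91-fold corrected), Pik3ap1, a link between the receptors and phosphoinositide 3-kinase, 2.48-fold (2.44-fold) and Cd14 1.90-fold (1.81-fold). So Cd14, Irf7 and Pik3ap1, which like Tlr2 and Tlr1 had passed as higher in LPS minus control, were lower with LPS+HF than with LPS. Tlr2 and Tlr1 did not pass in that comparison as measured, and Tlr2 passed as higher after the correction (adjusted p = 0.00765). Differences between genes were not tested. In HF minus control 1 of the 51 (1.96%), Lbp, passed as 3.88-fold higher (3.55-fold corrected) and 0 as lower, against 0.142% and 0.748% of all genes. Corrected, 3 (5.88%) and 4 (7.84%) passed, against 2.44% and 4.39%. In LPS+HF minus HF 5 (9.80%) passed as higher, namely Tnfaip3, Irak3, Ikbke, Slc15a3 and Cd14, between 3.05-fold and 5.13-fold (2.98-fold to 4.94-fold corrected), and 0 as lower, against 0.904% and 0.374% of all genes. Corrected, 8 (15.7%) and 0 passed, against 2.37% and 1.37%. For the interaction 0 passed, against 0.0134% of all genes as higher and 0.0401% as lower. After the correction 1 (1.96%) passed as higher and 0 as lower, against 0.931% and 0.717%.

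The genes whose levels ran most like each receptor over the 8 arrays were looked up among 3743 genes whose group means spanned at least 1 on the log2 scale. The arrays share slide and groups, so these correlations are a description. For Tlr2 they were Nfkbia, the inhibitor of NF-kB that NF-kB itself induces (r = 0.993), and the metal transporter Slc11a2 (r = 0.987), and the same 2 genes came first after the spatial correction. Nfkbia had a level of 7.09 and 6.95 on the LPS+HF arrays, 5.72 and 5.88 on the LPS arrays, 4.20 and 4.27 on the HF arrays and 3.22 and 3.25 on the control arrays, the order of groups seen for Tlr2. For Tlr1 they were Ncf4, a subunit of the phagocyte NADPH oxidase (r = 0.996), and Tnip3, a partner of Tnfaip3 (r = 0.991), and Tnip3 was again among the first 2 after the correction. Blvra and Gpi1 came first for Tlr7 (r = 0.994 and 0.993), Neil2 and Vsir for Tlr13 (0.994 and 0.993), Trpm1 and Gab3 for Cd180 (0.991 and 0.989), and Rpl35a and Avpi1 for Ly86 (0.984 each). For Tlr7, Tlr13 and Cd180 the first 2 genes were different ones after the correction, and for Ly86 the group means then spanned less than 1. Tlr6 and Tlr9 did not span 1 in either setting.

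The promoters of Tlr13 and of Tlr1 are shown because these genes had values on opposite sides of 0 in LPS minus control. Capitals mark the box GAGGAAG, searched on both strands as the core that the myeloid factor PU.1 is known to bind; 11.1% of the 32851 promoter windows held it.
Tlr13 promoter, GRCm38.p6, chrX:106143025-106143284, plus strand: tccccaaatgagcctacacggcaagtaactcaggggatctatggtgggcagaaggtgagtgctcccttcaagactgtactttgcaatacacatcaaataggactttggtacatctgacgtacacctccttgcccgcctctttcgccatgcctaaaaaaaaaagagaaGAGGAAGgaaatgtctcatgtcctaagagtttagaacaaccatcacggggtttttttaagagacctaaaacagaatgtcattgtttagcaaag
Tlr1 promoter, GRCm38.p6, chr5:64933549-64933808, minus strand: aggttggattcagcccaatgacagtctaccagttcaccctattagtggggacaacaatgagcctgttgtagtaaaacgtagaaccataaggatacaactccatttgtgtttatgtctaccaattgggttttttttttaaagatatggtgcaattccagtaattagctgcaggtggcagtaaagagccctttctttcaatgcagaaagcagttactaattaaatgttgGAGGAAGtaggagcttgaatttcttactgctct
The box begins at base -83 in Tlr13 and at base -23 in Tlr1, and in Tlr1 it stands at 1 of the 2 annotated starts. That start of Tlr1 lies inside the annotated gene, which ends at base 64933600, and so does the box. Tlr9, which did not pass in any comparison, was the other gene of the set with the box, at base -112. An interferon-response motif and an AP-1 motif were searched as well, and 7.38% and 4.65% of the windows held them. The first matched in Ly86, in Tlr8 and at 1 start of Tlr6, and the second in Tlr9.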

How the data were processed

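Per the file headers, the deposited intensity values of each spot were made with Agilent Feature Extraction 11.5.1.1, which subtracted background; there was no scaling between arrays. The log2 values of the authors' deposited matrix matched these signals after a shift to each array's 75th percentile and centring per probe (r = 1 on every array). Here the log2 of the processed signal was averaged over a probe's unmarked spots and shifted to the 75th percentile. The 30345 probes above background in 1 or more groups (both arrays) were kept, and the brightest probe stood for a gene (22460 genes). Of the 55681 probes, 28026 (50.3%) were named through RefSeq. The others were grouped by their record name on the array. Each such name that was kept counts as a gene among the 22460 and in the shares of all genes.

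Group means over all 8 arrays were fitted with limma 3.58.1 in R 4.3.3 (4 residual and 2.04 prior degrees of freedom), two-sided, with Benjamini-Hochberg adjustment. The genes, lists and the spatial correction (windows of 30 rows and 15 columns; spots dimmed over 4-fold masked, none of them in this set) were chosen with earlier results of these data known. Genes outside the set are named where they passed in the pathway list (at most 6 by size, where more passed) or had the 2 highest correlations. Tlr12 is named besides, as a Toll-like receptor. The script was tested on simulated data. Alternatives were 3 other scalings, including normexp with an offset of 50, the authors' matrix, other filters and probe summaries, a replicate block, fewer arrays and the spatial correction. Python 3.11.15, numpy 2.4.6, pandas 2.3.3 and matplotlib 3.10.9 were used.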

Additional observations from a re-analysis of the deposited data

Results flagged for a closer look

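After the spatial correction the interaction of LPS and HF for Tlr13 was 1.27 on the log2 scale, so the LPS difference differed between cells with and without HF in a test of that difference (adjusted p = 0.0386); as measured it was 1.64 (adjusted p = 0.406). Tlr3 gave a signal of 156.9 units on LPS+HF replicate 1, while the other 7 arrays were below background; the raw median pixel there was 188 against a local background of 37, on LPS+HF replicate 2 it was 49 against 35.5, the spot is single and the scanner software did not mark it as an outlier. Tlr8 gave 19.7 units on LPS replicate 2, above background on this array alone, close to the 17.4 units of the dimmest probe above background there.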

How the results depend on the processing

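Across the 20 alternatives (19 for the interaction), the differences of the 8 genes in the 5 comparisons kept their sign except for Tlr6, Tlr9 and the Tlr2 interaction, none of which had passed as measured. The signs that turned, each without passing, were those of Tlr6 in LPS minus control (0.207 with median scaling, 0.153 with the spatial correction and with that correction on each probe) and, with both spatial settings, of Tlr9 in HF minus control (-0.0195) and of the Tlr6 interaction (-0.0384). Median scaling also turned Tlr9 in LPS+HF minus HF (0.0378) and the Tlr2 interaction (-0.0677), and normexp turned Tlr9 in LPS minus control (-0.267), HF minus control (-0.44) and the interaction (0.075). Leaving out 1 array in turn gave -0.316 to 0.0399 for Tlr6 in LPS minus control, -0.109 to 0.294 for Tlr9 in HF minus control and -0.00463 to 0.261 for Tlr6 in LPS+HF minus HF. Tlr2 passed in LPS minus control in 17 of 20 alternatives and in LPS+HF minus HF in 16, Tlr1 in 11 and 13, and in LPS minus control Tlr13 passed in 12, Tlr7 in 11 and Cd180 in 9.

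Of the 8 genes, LPS minus control had 5 pass as measured, when 11.1% of all genes did. With median scaling 3 passed (Tlr2, Tlr1 and Tlr13), against 3.67% of all genes, and with the replicate block 3, against 7.48%. Without the filter on dim probes 1 of 10 passed, against 2.24%, and with only the arrays compared 0, against 0.294%. For HF minus control, 4 passed with the spatial correction and 3 when it was applied to each probe (Tlr2 was the one lost), against 0 as measured. The shares of all genes were 6.83% and 5.39%, against 0.89% as measured. For LPS+HF minus LPS, 1 passed, Tlr2, when a gene's probes were averaged, with probes above background on every array, with only the arrays compared and with both spatial settings. In these settings 6.92% to 32.9% of all genes passed, against 6.14% as measured. For LPS+HF minus HF, 1 passed in place of 2 with median scaling and without the filter, where 0.69% and 0.342% of all genes did, against 1.28% as measured. The interaction had 1 with both spatial settings, where 1.65% and 1.57% of all genes passed, against 0.0534% as measured. Leaving out 1 array gave 0 to 7, 0 to 7, 0 to 1, 0 to 2 and 0 to 6 in an order that starts with LPS minus control and HF minus control, goes on with LPS+HF minus LPS, then LPS+HF minus HF, and ends with the interaction.

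In that same order, 2487, 200, 1379, 287 and 12 of all genes passed as measured. Median scaling gave 825, 37, 199, 155 and 0, normexp 974, 8, 202, 72 and 0, and no filter 823, 13, 170, 126 and 0. The spatial correction gave 5541, 1533, 5182, 840 and 370, and on each probe 6969, 1637, 6673, 895 and 477. The interaction had 5 with quantile normalization and 0 with probes above background on all arrays. With only the arrays compared, the first gave 66, the second 0 and the third 7390. Leaving out 1 array gave 169 to 11819, 8 to 10156, 0 to 6547, 56 to 885 and 0 to 7923. Median scaling moved the median of all genes in LPS minus control to 0.27 and in HF minus control to 0.32, against -0.08 and -0.07; with it 68.9% of the calls in LPS minus control were higher, against 43.1% as measured, and 82.6% against 70.7% in LPS+HF minus HF. Of the calls in HF minus control, 32.4% were higher with it, 29.4% with quantile normalization and 35.8% with the spatial correction, against 16% as measured, and with normexp 27.7% in LPS+HF minus LPS and 93.1% in LPS+HF minus HF, against 47.1% and 70.7%. The cause was not tested.

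The differences between replicates 1 and 2, compared between groups over all genes, had r between -0.0819 and 0.254. The highest was for control and HF, whose replicate 1 arrays were the ones marked for evaluation. With control replicate 1 uneven, these values cannot tell whether the replicate number pairs the arrays. The replicate block gave 46 genes in HF minus control, 586 in LPS+HF minus LPS and 0 for the interaction. The number of arrays, 2 a group, limits the precision: the control arrays lay 1.39 apart on the log2 scale for Tlr13, 1.25 for Ly86, 0.82 for Cd180 and 0.77 for Tlr7, and 0.06, 0.05, 0.36 and 0.29 apart once corrected. Signals of Tlr3, Tlr8 and 1 Tlr7 probe were too near background for levels.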
